A study of Mus musculus with 18 samples.

Results

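The 39 genes described here encode proteins of the lysosome and of its immediate surroundings: the cathepsins, the glycosidases, lipid-handling and other hydrolases, membrane proteins, subunits of the proton pump, the GTPase gene Rragd and the autophagy receptor gene Sqstm1. They were chosen by name, with earlier results of these data known. Each was represented by its brightest detected probe in the deposited log2 values. Of the 39, 38 had a probe that carried their symbol and no other (Cd68 had none in the annotation used), and 37 were detected on at least 1 array and tested. The probe of Atp6v0d2 was not detected on any array. The remaining 37 stand among 12417 genes tested in all.

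The macrophages were grown from the bone marrow of Nur77-KO and WT C57BL/6 mice (bone marrow-derived macrophages, BMM) in medium conditioned by L929 cells. RNA was hybridised to Illumina MouseWG-6 v2 arrays, 3 for each of 6 groups: Nur77-KO and WT BMM treated for 8 h with 100 ng/ml LPS, a bacterial cell wall component that activates macrophages through Toll-like receptor signalling, Nur77-KO and WT BMM treated for 8 h with 50 ng/ml IL-4, the cytokine of alternative activation, and unstimulated Nur77-KO and WT BMM, labelled 0 h. The cultures also held RNA of stromal and neutrophil marker genes. Bone marrow was isolated in batches from 3 mice per genotype. The labels do not say whether the 3 arrays of a group came from separate mice or cultures, so the p-values measure the spread between these arrays, which may in part be technical. A comparison with the unstimulated cells includes any change over 8 h of culture, whereas LPS and IL-4 can be compared at the same time. The arrays lay on 6 slides, and no slide held both LPS and unstimulated arrays of the same genotype. The comparison of LPS with no stimulation therefore crosses slides as well. The LPS and the IL-4 comparisons of a genotype share its unstimulated arrays.

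Lysosomes are acidic organelles in which macrophages break down engulfed bacteria, dead cells and lipoproteins. A V-type ATPase pumps protons into the lumen, and at this low pH cathepsins cleave proteins, glycosidases trim sugar chains, and lipases and saposins take lipids apart. Many lysosomal genes share a promoter element, the CLEAR motif, which the related transcription factors TFEB and TFE3 bind. These factors are held in the cytoplasm when the kinase complex mTORC1 is active on the lysosomal surface, where it is recruited by Rag GTPases such as RagD.

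Between 11829 and 16283 probes per array were detected. Nr4a1, the Nur77 gene itself, had a probe that was detected on 0 of the 18 arrays, which leaves the genotype labels unchecked. All 10 macrophage marker genes were detected on every array. The Y-linked gene Eif2s3y read 8.91 to 9.68 on 7 of the 9 Nur77-KO arrays but 4.53 and 4.59 on LPS replicate 1 and IL-4 replicate 1, and 4.45 to 4.76 on the WT arrays. On the other 7 Nur77-KO arrays, sex and genotype cannot be told apart. The stromal gene Sparc read 5.13 on Nur77-KO LPS replicate 1, 5.41 on Nur77-KO IL-4 replicate 1, 6.71 on WT LPS replicate 3 and 5.41 on WT IL-4 replicate 1, against 8.44 to 10.55 on the remaining 14 arrays. These 4 arrays stand apart from the others of their groups also in several cathepsins, and the main results were computed again without them. That fit was chosen after the values were seen. It also leaves out both Nur77-KO arrays without Y-linked signal. On the arrays that remain, Sparc was higher on every Nur77-KO than on every WT array. Genotype comparisons in that fit therefore cannot be told apart from sex or from the stromal signal.

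A large part of these genes was lower with LPS than without in both genotypes, in comparisons that cross slides. The lysosomal acid lipase gene Lipa, the mannosidase gene Manba and the hyaluronidase gene Hyal1 fell most among the hydrolases, together with Rragd, and the cathepsin C gene Ctsc and Sqstm1 rose. In Nur77-KO BMM 16 of the 37 tested genes were lower (43.2%, against 23.7% of all 12417 genes) and 2 were higher (5.41%, against 14.1% of all genes). In WT BMM 20 were lower (54.1%, against 24.3% of all genes) and 3 were higher (8.11%, against 15.5% of all genes). Counting both directions, 48.6% of the 37 were called in Nur77-KO BMM (37.8% of all genes) and 62.2% in WT BMM (39.8% of all genes). A second rule, taken from the methods, asked for an unadjusted p of under 0.05 with a change of 1.4-fold or more, and by it 17 and 22 of the 37 passed (40.5% and 41.7% of all genes). All 16 genes that fell in Nur77-KO BMM also fell in WT BMM. The median log2 difference over the 37 genes was -0.46 in Nur77-KO and -0.52 in WT BMM, beside -0.08 and -0.06 over all genes. A gene was called with limma at a p-value under 0.05 after Benjamini-Hochberg adjustment over all genes of a comparison, and differences are given on the log2 scale with their standard error (SE).

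**Figure D1:**
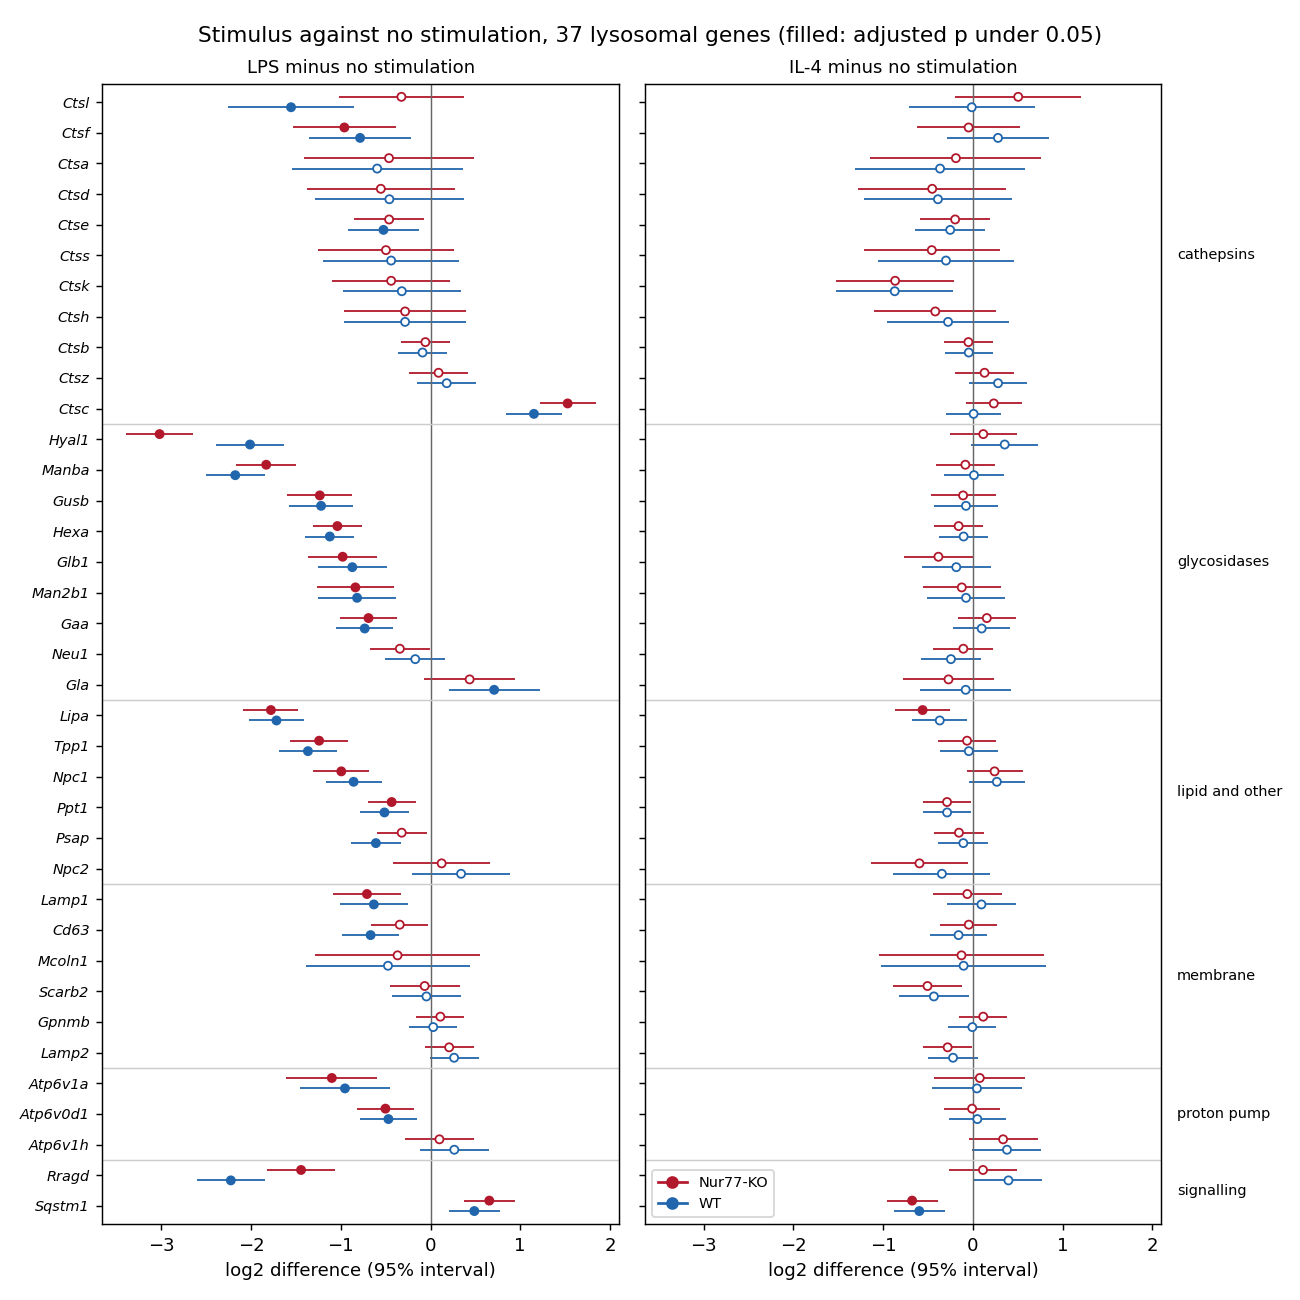
Log2 difference (horizontal axis, points with 95% intervals) of LPS (left panel) and of IL-4 (right panel) against no stimulation for the 37 tested genes, ordered by role, in Nur77-KO (red) and WT BMM (blue); filled points have an adjusted p under 0.05. Most glycosidases and lipid-handling hydrolases lie left of 0 with LPS, and with IL-4 only Sqstm1 and, in Nur77-KO BMM, Lipa have filled points.

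Among the 9 glycosidases, 7 fell with LPS in either genotype. Manba encodes the enzyme that removes the last beta-linked mannose from N-glycans. It read 8.04, 8.23 and 8.26 with LPS against 10.00, 9.74 and 10.29 without in Nur77-KO BMM, and 7.99, 7.90 and 7.51 with LPS against 9.95, 9.98 and 10.00 without in WT BMM. The groups did not overlap, and Manba fell by 1.83 ± 0.16 in Nur77-KO (adjusted p = 1.09e-07) and by 2.18 ± 0.16 in WT BMM (adjusted p = 1.31e-08). Hyal1 encodes a hyaluronidase that cuts hyaluronan at acid pH. It read 4.92, 5.39 and 5.12 with LPS against 8.15, 8.16 and 8.18 without in Nur77-KO BMM, and 4.91, 5.21 and 5.06 with LPS against 6.97, 6.97 and 7.28 without in WT BMM. Its probe was not detected on any of the 6 LPS arrays, so the change has only a bound. Taking for each LPS array the lowest level at which any probe was detected, Hyal1 was at least 5.72-fold lower in Nur77-KO (adjusted p = 1.53e-09) and at least 2.42-fold lower in WT BMM (adjusted p = 1.43e-07).

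Gusb, the beta-glucuronidase gene, and Hexa, which encodes the alpha subunit of beta-hexosaminidase, were each more than 2-fold lower. Gusb averaged 12.98 ± 0.36 with LPS and 14.22 ± 0.12 without in Nur77-KO BMM, and 12.76 ± 0.16 and 13.98 ± 0.11 in WT BMM (SD, n = 3 each), a fall by 1.23 ± 0.17 and by 1.22 ± 0.17. Hexa fell by 1.04 ± 0.13 in Nur77-KO and by 1.12 ± 0.13 in WT BMM. The beta-galactosidase gene Glb1 fell by 0.98 ± 0.18 and 0.87 ± 0.18, the alpha-mannosidase gene Man2b1 by 0.84 ± 0.20 and 0.82 ± 0.20, and the acid alpha-glucosidase gene Gaa by 0.69 ± 0.15 and 0.73 ± 0.15 (Nur77-KO and WT in each case). In these 5 genes no LPS array overlapped with an unstimulated array of its genotype. The alpha-galactosidase gene Gla was not among the fallers. It read 8.27, 7.50 and 7.76 with LPS against 7.66, 7.46 and 7.11 without in Nur77-KO BMM, and 7.58, 7.29 and 7.60 with LPS against 6.86, 6.69 and 6.79 without in WT BMM. It rose in WT BMM (0.71 ± 0.24, adjusted p = 0.0259), whereas in Nur77-KO BMM the groups overlapped and the difference of 0.44 ± 0.24 was not called (adjusted p = 0.172). The sialidase gene Neu1 was not called in either genotype (-0.34 ± 0.16 in Nur77-KO and -0.17 ± 0.16 in WT BMM). Without the 4 arrays that stand apart it was lower in both (-0.45 and -0.34, adjusted p = 0.00284 and 0.0152). The LPS arrays left out hold the highest Neu1 values of their groups, so these calls follow in part from that choice.

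Of the 6 genes for lipid handling, saposins and other hydrolases, 4 fell with LPS in Nur77-KO and 5 in WT BMM. Lipa, whose product frees cholesterol and fatty acids from lipoprotein lipids, read 11.01, 11.28 and 11.45 with LPS against 13.00, 13.09 and 12.98 without in Nur77-KO BMM, and 11.17, 11.14 and 10.88 with LPS against 12.75, 12.94 and 12.66 without in WT BMM. The LPS arrays lie far below the unstimulated ones in both genotypes. The fall was 3.43-fold in Nur77-KO (adjusted p = 6.05e-08) and 3.29-fold in WT BMM (adjusted p = 8.23e-08). Tpp1, which encodes the tripeptidyl peptidase that is lost in a form of neuronal ceroid lipofuscinosis, fell by 1.24 ± 0.15 in Nur77-KO and by 1.37 ± 0.15 in WT BMM. The palmitoyl thioesterase gene Ppt1 fell by 0.43 ± 0.13 and 0.51 ± 0.13. Npc2, which encodes the soluble carrier that hands cholesterol to NPC1, was not called (0.12 ± 0.25 and 0.34 ± 0.25).

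Npc1, the gene of the cholesterol exporter of the lysosomal membrane, fell by 0.99 ± 0.15 in Nur77-KO and by 0.86 ± 0.15 in WT BMM on its brightest probe. Its other probes did not move together. Another probe detected on all 18 arrays differed by -1.45 in Nur77-KO and -1.07 in WT BMM, whereas the next of them, also detected on all arrays, differed by 1.69 and 1.36, and the last, detected on 10 arrays, by -0.24 and 0.56. The direction for Npc1 therefore depends on the probe. Psap, the precursor of the saposins, which present sphingolipids to their hydrolases, averaged 15.13 ± 0.12 with LPS and 15.45 ± 0.06 without in Nur77-KO BMM, and 14.70 ± 0.22 and 15.30 ± 0.10 in WT BMM (SD, n = 3). It was called in WT BMM (-0.61 ± 0.13, adjusted p = 0.00132), and the difference of -0.32 ± 0.13 in Nur77-KO BMM missed the threshold (adjusted p = 0.0657). Psap read 15.51 on one array, the highest value that any probe had, and Ctsb and Gpnmb also lay within 0.46 of it on all arrays, so differences of these 3 genes may be compressed at the top of the scale.

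The cathepsins moved less as a group: of 11 genes, 1 fell and 1 rose with LPS in Nur77-KO BMM, and 3 fell and 1 rose in WT BMM. Ctsc encodes cathepsin C, the dipeptidyl peptidase that activates granule serine proteases. It read 13.79, 13.54 and 13.50 with LPS against 12.10, 12.02 and 12.12 without in Nur77-KO BMM, and 13.64, 13.63 and 13.82 with LPS against 12.40, 12.42 and 12.80 without in WT BMM. Ctsc was higher on every LPS array than on any unstimulated array of either genotype, by 1.53 ± 0.15 in Nur77-KO (adjusted p = 4.11e-07) and 1.15 ± 0.15 in WT BMM (adjusted p = 8.48e-06). Ctsl, the gene of the cysteine protease cathepsin L, read 6.31, 7.10 and 6.90 with LPS against 7.09, 6.99 and 7.21 without in Nur77-KO BMM. In WT BMM it read 4.77, 5.42 and 6.03 with LPS, where it was not detected on any array, against 6.73, 6.97 and 7.18 without. Ctsl was at least 2.24-fold lower with LPS in WT BMM (adjusted p = 0.00118), whereas in Nur77-KO BMM the groups overlapped (-0.32 ± 0.33, adjusted p = 0.493).

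Ctsf, a further cysteine cathepsin gene, was not detected on any LPS array. It was at least 1.50-fold lower with LPS in Nur77-KO (adjusted p = 0.00941) and at least 1.16-fold lower in WT BMM (adjusted p = 0.0281). Ctse, the gene of an aspartic protease, differed by -0.46 ± 0.18 in Nur77-KO (adjusted p = 0.0606) and was lower in WT BMM (-0.52 ± 0.18, adjusted p = 0.0326), a call that was lost without the 4 arrays that stand apart (adjusted p = 0.142). The other 7 cathepsin genes, Ctsa, Ctsb, Ctsd, Ctsh, Ctsk, Ctss and Ctsz, were not called, with log2 differences between -0.59 and 0.18. Among them Ctsa encodes a serine carboxypeptidase that also protects Glb1 and Neu1, Ctsd the main aspartic protease, Ctss the protease that trims the invariant chain of MHC class II, and Ctsk a collagenolytic cysteine protease. Their spread on the stimulated arrays was wide: Ctsa read 11.76, 10.76 and 10.53 with LPS in Nur77-KO BMM and 10.43, 10.35 and 11.41 in WT BMM, and the high values are those of the 2 LPS arrays with the lowest Sparc. Without the 4 arrays, Ctsa (-0.83 and -0.93) and Ctsh (-0.41 and -0.55) were lower with LPS in Nur77-KO and WT BMM, and Ctsd (-0.75) and Ctss (-0.69) were lower in Nur77-KO BMM. The LPS arrays left out hold the highest Ctsa and Ctsh values of their groups, and in Nur77-KO BMM also the highest Ctsd and Ctss values. Lower means of these genes without them follow in part from that choice and are not independent support.

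Of the 6 tested membrane protein genes, Lamp1 fell in both genotypes. It encodes the most abundant glycoprotein of the lysosomal membrane. It read 13.48, 13.32 and 13.41 with LPS against 14.06, 14.13 and 14.15 without in Nur77-KO BMM, and 12.98, 12.99 and 13.53 with LPS against 13.76, 13.72 and 13.91 without in WT BMM. The groups did not overlap, with a fall by 0.71 ± 0.18 in Nur77-KO and 0.63 ± 0.18 in WT BMM (adjusted p = 0.00504 and 0.00997). Its relative Lamp2, which is needed for fusion with autophagosomes, differed by 0.21 ± 0.13 and 0.26 ± 0.13 and was not called. The tetraspanin gene Cd63 was lower in WT BMM (-0.67 ± 0.15, adjusted p = 0.00176) and differed by -0.34 ± 0.15 in Nur77-KO BMM (adjusted p = 0.0839). Scarb2, which encodes the receptor that carries glucocerebrosidase to the lysosome, the calcium channel gene Mcoln1 and Gpnmb, a glycoprotein gene of lipid-laden macrophages, were not called, with differences between -0.47 and 0.11. Mcoln1 was detected on 2 of 3 LPS arrays in each genotype.

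Both membrane and catalytic parts of the proton pump were represented. Atp6v1a, the catalytic A subunit, read 10.77, 10.80 and 10.33 with LPS against 11.57, 11.98 and 11.64 without in Nur77-KO BMM, and 10.89, 11.15 and 10.24 with LPS against 11.75, 11.70 and 11.68 without in WT BMM. It was lower on every LPS array and fell by 1.10 ± 0.24 in Nur77-KO (adjusted p = 0.0015) and by 0.95 ± 0.24 in WT BMM (adjusted p = 0.00409). Atp6v0d1, a subunit of the membrane domain, fell by 0.50 ± 0.15 and 0.47 ± 0.15 on its brightest probe (adjusted p = 0.0133 and 0.0186). Its 3 other probes differed by -0.31 to -0.29 in Nur77-KO and by -0.18 to 0.02 in WT BMM. The regulatory subunit gene Atp6v1h was not called (0.10 ± 0.18 and 0.27 ± 0.18).

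Rragd and Sqstm1 went in opposite directions with LPS. Rragd, whose product RagD is one of the GTPases that bring mTORC1 to the lysosome, read 6.36, 6.78 and 6.73 with LPS against 8.06, 8.12 and 8.02 without in Nur77-KO BMM. In WT BMM it read 4.93, 4.92 and 5.37 with LPS, where it was not detected on any array, against 7.45, 7.17 and 7.28 without. Rragd was 2.72-fold lower with LPS in Nur77-KO (adjusted p = 7.36e-06) and at least 2.83-fold lower in WT BMM (adjusted p = 4.97e-08). Sqstm1 encodes p62, which ties ubiquitinated cargo to the growing autophagosome. It read 12.08, 12.29 and 12.16 with LPS against 11.58, 11.35 and 11.63 without in Nur77-KO BMM, and 12.06, 12.05 and 12.00 with LPS against 11.58, 11.44 and 11.62 without in WT BMM. Every LPS array was higher, by 0.66 ± 0.13 in Nur77-KO (adjusted p = 0.000932) and 0.49 ± 0.13 in WT BMM (adjusted p = 0.00765).

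**Figure D2:**
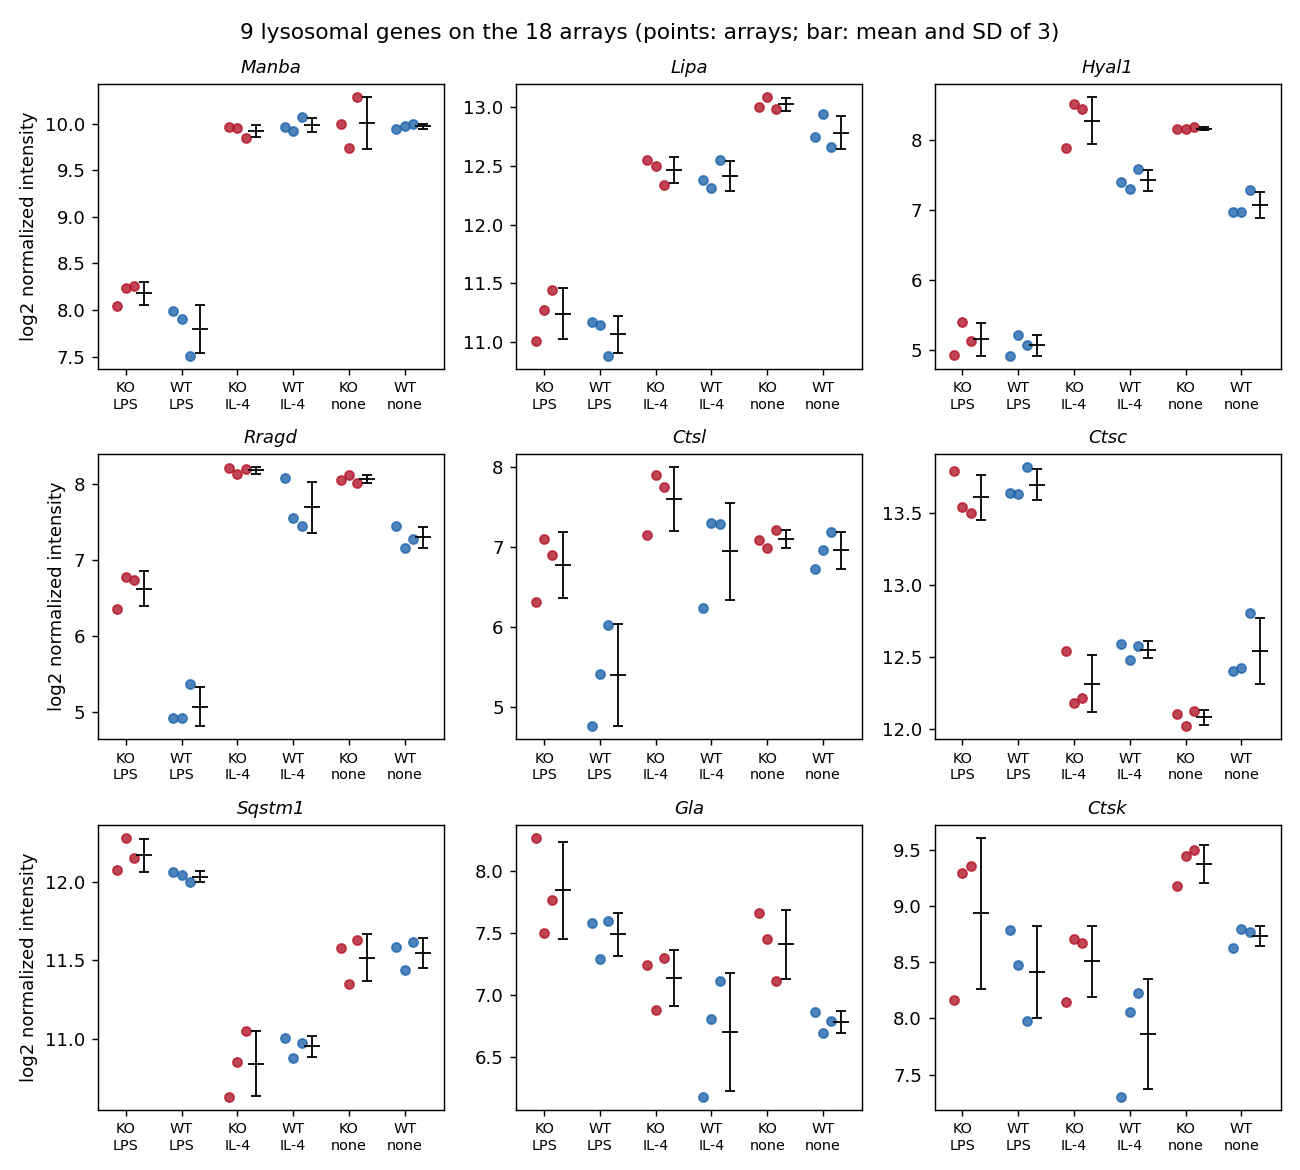
Log2 normalized intensity (vertical axis, not starting at 0) of 9 genes on each of the 18 arrays (points) in the 6 groups, with the mean and SD of 3 arrays beside them; red is Nur77-KO, blue WT, and none means unstimulated. Manba, Lipa, Hyal1 and Rragd are low on the LPS arrays, Ctsc and Sqstm1 are high on them, and Ctsl and Rragd are lower on the WT than on the Nur77-KO LPS arrays.

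The promoters of the listed genes were searched for the E-box CACGTG at the core of the CLEAR motif, for TCACGTGA, and for TCACGTGA flanked by G and C. All 3 read the same on both strands, and each longer form contains the shorter. RefSeq promoters on build GRCm38.p6, from 250 bases before to 50 bases after the start site, were at hand for 33 of the 39 genes, and for Ctsa and Psap there were 2. CACGTG occurred in 11 of the 33 genes (33.3%), against 8.09% of 27025 genes with a promoter in the table. TCACGTGA occurred in 6 of the 33 (Ctsa, Ctsd, Mcoln1, Atp6v0d1, Atp6v1a and Gla), against 1.12% of all. The flanked form occurred in 0 of the 33, against 0.37% of all. Lamp1, Glb1, Gaa, Ctsf and Ctsl held CACGTG without either longer form.

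Shown first, with TCACGTGA in capitals, are the pump subunit genes Atp6v1a and Atp6v0d1, which were lower with LPS, and Gla, which was higher with LPS in WT BMM.
Atp6v1a: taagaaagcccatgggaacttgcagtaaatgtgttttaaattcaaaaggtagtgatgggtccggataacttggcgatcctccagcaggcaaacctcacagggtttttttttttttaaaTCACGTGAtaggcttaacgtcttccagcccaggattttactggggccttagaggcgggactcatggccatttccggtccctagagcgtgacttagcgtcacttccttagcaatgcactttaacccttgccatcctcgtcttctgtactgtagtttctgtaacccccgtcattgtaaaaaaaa
Atp6v0d1: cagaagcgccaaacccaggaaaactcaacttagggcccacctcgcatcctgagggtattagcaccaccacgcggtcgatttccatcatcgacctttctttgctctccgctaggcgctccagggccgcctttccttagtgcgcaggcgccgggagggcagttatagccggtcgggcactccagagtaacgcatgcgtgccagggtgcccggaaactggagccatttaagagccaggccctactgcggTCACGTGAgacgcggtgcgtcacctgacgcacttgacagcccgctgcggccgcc
Gla: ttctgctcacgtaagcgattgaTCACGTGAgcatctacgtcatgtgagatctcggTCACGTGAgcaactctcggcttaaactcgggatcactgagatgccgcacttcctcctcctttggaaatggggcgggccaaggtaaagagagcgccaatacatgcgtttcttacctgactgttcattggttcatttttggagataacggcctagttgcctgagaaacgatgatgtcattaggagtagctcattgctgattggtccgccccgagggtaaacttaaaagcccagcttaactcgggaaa
The Atp6v1a window lies at chr16:44139210-44139509, that of Atp6v0d1 at chr8:105566015-105566314 and that of Gla at chrX:134600956-134601255, all on the minus strand. The inner CACGTG began at -131 from the start site in Atp6v1a and at -3 in Atp6v0d1, and in Gla the E-boxes began at -227 and -194. Lamp1, also lower with LPS, held 4 copies of CACGTG (capitals), the most of the listed genes, at chr8:13158911-13159210 on the plus strand.
Lamp1: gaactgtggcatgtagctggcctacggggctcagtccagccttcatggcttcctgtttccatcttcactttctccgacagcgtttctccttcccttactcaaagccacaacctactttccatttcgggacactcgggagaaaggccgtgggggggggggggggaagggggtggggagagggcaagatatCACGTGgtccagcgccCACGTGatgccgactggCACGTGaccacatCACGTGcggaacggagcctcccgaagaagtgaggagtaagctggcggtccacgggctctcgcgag
Hyal1, Rragd, Manba, Lipa and Tpp1, the genes with the largest falls under LPS in Nur77-KO BMM, held none of the 3 motifs in this window, whereas Ctsl, which was lower in WT BMM, held CACGTG. The Hyal1 promoter, at chr9:107576700-107576999 on the plus strand, is shown for comparison.
Hyal1: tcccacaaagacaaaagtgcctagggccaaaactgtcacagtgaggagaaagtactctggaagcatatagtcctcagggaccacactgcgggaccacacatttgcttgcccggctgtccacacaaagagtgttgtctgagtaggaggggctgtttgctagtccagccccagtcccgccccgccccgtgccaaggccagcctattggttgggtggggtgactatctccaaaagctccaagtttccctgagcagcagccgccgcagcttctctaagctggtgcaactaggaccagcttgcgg
The motif was thus found in genes that fell, in a gene that rose and in genes that were not called (Ctsa, Ctsd and Mcoln1), and a match of letters does not show binding.

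Genes of the same pathways that are not among the 39 were followed as 7 lists: other pump subunits, other acid hydrolases, other membrane proteins, hydrolase sorting, cathepsin inhibitors, the MiT/TFE factors with the Rag and Ragulator genes, and autophagy genes. Of 119 genes listed, 102 were tested. With LPS 45 fell and 16 rose in Nur77-KO BMM, and 50 fell and 17 rose in WT BMM. Of all genes, 23.7% were lower and 14.1% higher in Nur77-KO BMM, and 24.3% and 15.5% in WT BMM. Other acid hydrolases fell most often, 15 of 24 in Nur77-KO and 17 of 24 in WT BMM, with a median of -0.83 and -0.90. The lysosomal phospholipase gene Pla2g15 was lower (-2.60 ± 0.14 in Nur77-KO and -2.80 ± 0.14 in WT BMM). The sulfamidase gene Sgsh was lower as well, but it was detected on 1 of 3 LPS arrays in each genotype, so the size of its fall is not given. Sort1, a sorting receptor for newly made hydrolases, was lower too (-2.62 ± 0.14 and -2.87 ± 0.14). Tpcn1, a cation channel gene of endolysosomes, was also lower (-3.83 ± 0.17 and -3.72 ± 0.17).

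The rises in these lists included a cathepsin inhibitor and a pump subunit. Cst7, which encodes cystatin F, an inhibitor of cathepsins C, L and others, read 10.37, 10.37 and 10.32 with LPS against 6.01, 6.02 and 6.26 without in Nur77-KO BMM, and 10.34, 10.33 and 10.46 with LPS against 5.62, 6.85 and 5.67 without in WT BMM. Cst7 was higher on every LPS array, 19.2-fold in Nur77-KO and 20.1-fold in WT BMM. Of the 12 other pump subunits, 4 rose and 4 fell in Nur77-KO BMM, and 4 rose and 5 fell in WT BMM. The isoform genes of the membrane-embedded a subunit moved in opposite directions: Atp6v0a1 fell by 1.82 ± 0.29 and 1.97 ± 0.29, and Atp6v0a2 rose by 1.37 ± 0.14 and 1.36 ± 0.14. Mitf, a factor of the TFEB family, rose by 1.31 ± 0.33 and 1.56 ± 0.33, and Lamtor4, a Ragulator subunit that anchors the Rag GTPases, fell by 1.50 ± 0.14 and 1.80 ± 0.14. Of the autophagy genes, Gabarapl1 and Map1lc3b, which encode ubiquitin-like proteins of the autophagosome membrane, fell by 1.88 ± 0.16 and 1.66 ± 0.28 in Nur77-KO and by 2.16 ± 0.16 and 1.78 ± 0.28 in WT BMM.

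IL-4 changed few of the 37 genes. In Nur77-KO BMM 2 were lower (5.41%, against 2.42% of all genes) and 0 were higher (against 3.12% of all genes), and in WT BMM 1 was lower (2.7%, against 3.08% of all genes) and 0 were higher (against 3.68%). In both directions together 5.55% and 6.76% of all genes were called. By the second rule 5 were lower in Nur77-KO BMM (6.18% of all genes) and 2 in WT BMM (7.13%), and 0 were higher (5.68% and 6.84%), Ctsk being lower in both (-0.87 ± 0.31 in each). At an unadjusted p under 0.05, 8 of the 37 differed in Nur77-KO (15.9% of all genes) and 6 in WT BMM (18.2% of all genes). Sqstm1 read 10.63, 10.85 and 11.05 with IL-4 in Nur77-KO and 11.00, 10.87 and 10.97 in WT BMM, below every unstimulated array of its genotype. It fell by 0.68 ± 0.13 in Nur77-KO (adjusted p = 0.00566) and by 0.60 ± 0.13 in WT BMM (adjusted p = 0.0114). Lipa read 12.55, 12.50 and 12.34 with IL-4 in Nur77-KO BMM and 12.38, 12.31 and 12.55 in WT BMM. These values lie below all unstimulated arrays too, but the fall was called in Nur77-KO BMM (-0.56 ± 0.14, adjusted p = 0.0299) and not in WT BMM (-0.37 ± 0.14, adjusted p = 0.162). The Lipa call was lost in 10 of 32 other settings, among them leaving out any single unstimulated Nur77-KO array.

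Without the 4 arrays that stand apart, 11 of the 37 genes were called with IL-4 in Nur77-KO BMM (9 lower and 2 higher, where 12.4% of all genes were called) and 9 in WT BMM (8 lower and 1 higher, where 16.2% of all genes were called). Ctsa (-0.72 in Nur77-KO and -0.79 in WT BMM), Ctsd (-0.88 and -0.86), Ctsh (-0.71 and -0.70), Ctsk (-0.69 and -0.59), Npc2 (-0.79 and -0.65) and Scarb2 (-0.63 and -0.63) were lower in both genotypes in that fit, and Atp6v1h was higher (0.45 and 0.60). The number of cathepsins called with IL-4 thus rests on these arrays. The IL-4 arrays left out hold the highest Ctsa, Ctsd, Ctsh, Npc2 and Scarb2 values and the lowest Atp6v1h values of their groups. The calls of these genes are not independent support.

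In the 7 other lists IL-4 raised 10 of 102 genes and lowered 3 in Nur77-KO BMM, and raised 11 and lowered 4 in WT BMM. Over all genes IL-4 raised 3.12% and lowered 2.42% in Nur77-KO BMM, and raised 3.68% and lowered 3.08% in WT BMM. Atp6v0a1 rose by 1.62 ± 0.29 and 1.37 ± 0.29 and thus went opposite ways with IL-4 and LPS. Atp6v1b2, a subunit of the cytosolic part of the pump, rose by 0.82 ± 0.12 and 0.79 ± 0.12, and Slc17a5, the sialic acid exporter, by 0.97 ± 0.23 and 0.99 ± 0.23. Tpcn1 fell with IL-4 as well, by 1.12 ± 0.17 and 1.25 ± 0.17.

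At the same time point, LPS and IL-4 differed in 20 of the 37 genes in Nur77-KO BMM (15 lower with LPS, 40.5% against 23.0% of all genes, and 5 higher, 13.5% against 13.8%) and in 23 in WT BMM (18 lower, 48.6% against 23.4%, and 5 higher, 13.5% against 15.1%). The 5 genes higher with LPS than with IL-4 were Ctsc, Sqstm1, Lamp2, Gla and Npc2 in both genotypes. In the main fit, Lamp2 and Npc2 were not called with LPS or with IL-4 against no stimulation. The Npc2 call in WT BMM was lost in 14 of 32 other settings, and its WT LPS and IL-4 arrays overlapped. Sqstm1 was 1.33 ± 0.13 higher in Nur77-KO (adjusted p = 7.47e-07) and 1.09 ± 0.13 in WT BMM (adjusted p = 6.29e-06). Lamp2 read 13.80, 13.55 and 13.62 with LPS against 13.05, 13.15 and 13.30 with IL-4 in Nur77-KO BMM, and 13.74, 13.77 and 13.54 against 13.17, 13.21 and 13.21 in WT BMM, a difference of 0.49 ± 0.13 and 0.48 ± 0.13. Counting both directions, 36.8% and 38.4% of all genes differed between LPS and IL-4, and by the second rule 21 and 22 of the 37 did (39% and 40.8% of all genes). Without the 4 arrays that stand apart, Gla was no longer called (adjusted p = 0.0551 in Nur77-KO and 0.0899 in WT BMM), nor was Atp6v1a in WT BMM (adjusted p = 0.0554). The fall of Hyal1 under LPS was at least 6.19-fold relative to IL-4 in Nur77-KO BMM and at least 3.09-fold in WT BMM, and that of Rragd 2.93-fold and at least 3.72-fold.

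The comparison of Nur77-KO with WT BMM asks whether loss of Nur77 changed these genes. In unstimulated cells 1 of the 37, Hyal1, was higher in Nur77-KO BMM (2.7%, against 0.0644% of all genes) and 0 were lower (0.0403% of all genes, and 0.105% in both directions). It read 8.15, 8.16 and 8.18 in Nur77-KO BMM against 6.97, 6.97 and 7.28 in WT BMM, with no overlap. The difference was 1.09 ± 0.18 (2.13-fold, adjusted p = 0.0231), and on the 2 slides that held both genotypes it was 1.19 and 0.90. The call was lost on leaving out any one of 5 of the 6 unstimulated arrays (all but WT replicate 3). With IL-4, Hyal1 read 7.89, 8.51 and 8.44 in Nur77-KO BMM against 7.39, 7.29 and 7.59 in WT BMM, again without overlap, but the difference of 0.85 ± 0.18 was not called (adjusted p = 0.221). Without the arrays that stand apart it was 1.04 (adjusted p = 0.00494), but the Nur77-KO IL-4 array left out held the lowest value of its group (7.89). With LPS the gene was not detected in either genotype.

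With LPS 1 of the 37, Rragd, was higher in Nur77-KO BMM (2.7%, against 0.105% of all genes) and 0 were lower (0.0886% of all genes, and 0.193% in both directions). The paper, from these same arrays, already lists Rragd among the genes most increased in LPS-treated Nur77-KO BMM. The genes described here were chosen with earlier results of these data known. The share of 2.7% therefore cannot show an excess over all genes. Rragd read 6.36, 6.78 and 6.73 in Nur77-KO BMM, against 4.93, 4.92 and 5.37 in WT BMM, where no array detected it. It was at least 1.77-fold higher in Nur77-KO BMM (measured difference 1.55 ± 0.18, adjusted p = 0.00275), and on the slide that held both genotypes the difference was 1.36. With median scaling or cyclic loess in place of quantile normalization, and with slide as a fixed block, neither this call nor that of Hyal1 in unstimulated cells was made, although both genes stayed higher in Nur77-KO BMM. Unstimulated, Rragd read 8.06, 8.12 and 8.02 in Nur77-KO BMM against 7.45, 7.17 and 7.28 in WT BMM, and with IL-4 8.21, 8.13 and 8.20 against 8.08, 7.55 and 7.45. The groups did not overlap in these states either, with differences of 0.77 ± 0.18 (adjusted p = 0.156) and 0.48 ± 0.18 (adjusted p = 0.863). Both were called without the 4 arrays (0.77 and 0.66, adjusted p = 0.000834 and 0.0126). The WT IL-4 array left out held the highest Rragd value of its group (8.08). On the 2 Nur77-KO arrays without Y-linked signal, Rragd with LPS read 6.36, above all 3 WT LPS arrays, and Hyal1 with IL-4 read 7.89, above all 3 WT IL-4 arrays. Each of these values was the lowest of its Nur77-KO group, and both arrays also have low Sparc. The part of sex was not tested.

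Ctsl followed Rragd in the size of the difference between the genotypes with LPS. It read 6.31, 7.10 and 6.90 in Nur77-KO BMM against 4.77, 5.42 and 6.03 in WT BMM, and all Nur77-KO arrays were higher, but the difference of 1.37 ± 0.33 was not called (adjusted p = 0.165), with a bound of at least 1.97-fold. Without the 4 arrays it was 1.91 (adjusted p = 0.000291), and Ctsh (0.50), Ctsk (0.69) and Psap (0.53) were called higher in Nur77-KO BMM as well, where 5.31% of all genes were called. In that fit, sex and stromal signal go with genotype, and their part was not tested. The LPS arrays left out held the lowest Nur77-KO and the highest WT value of Ctsl (6.31 and 6.03). Its larger difference without them follows in part from that choice and is not independent support. With IL-4 no gene of the 37 was called by limma (0.0403% of all genes were, 0.0242% higher and 0.0161% lower), with 5 at an unadjusted p under 0.05 (4.73% of all genes). Hyal1 and Rragd were called without the 4 arrays, as were 2.51% of all genes.

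Small differences in 1 direction were spread over the 37 genes. In unstimulated cells 28 of 37 had a higher mean in Nur77-KO BMM, with a median of 0.19 beside 0.00 over all genes, of which 50.2% were higher. The Nur77-KO and WT arrays did not overlap for 17 of the 37, against 19.0% of all genes. With LPS 29 of 37 had a higher mean in Nur77-KO BMM (median 0.15) and 8 did not overlap, against 12.0% of all genes. With IL-4 it was 25 of 37 (median 0.11) and 4 did not overlap, against 7.67% of all genes. Glb1, lower in Nur77-KO BMM in all 3 states (-0.24, -0.35 and -0.44), and Ctsc, lower in unstimulated Nur77-KO BMM (-0.46 ± 0.15), went against this. Glb1 and Ctsc were not called, and Hyal1 without stimulation and Rragd with LPS were the only called genes of the 37. By the second rule, 3 of the 37 were higher in unstimulated Nur77-KO BMM (2.23% of all genes), 2 with LPS (3.08%) and 1 with IL-4 (1.8%), and 0 were lower (1.33%, 3.16% and 1.43% of all genes). In both directions 3.56%, 6.24% and 3.24% of all genes passed it.

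**Figure D3:**
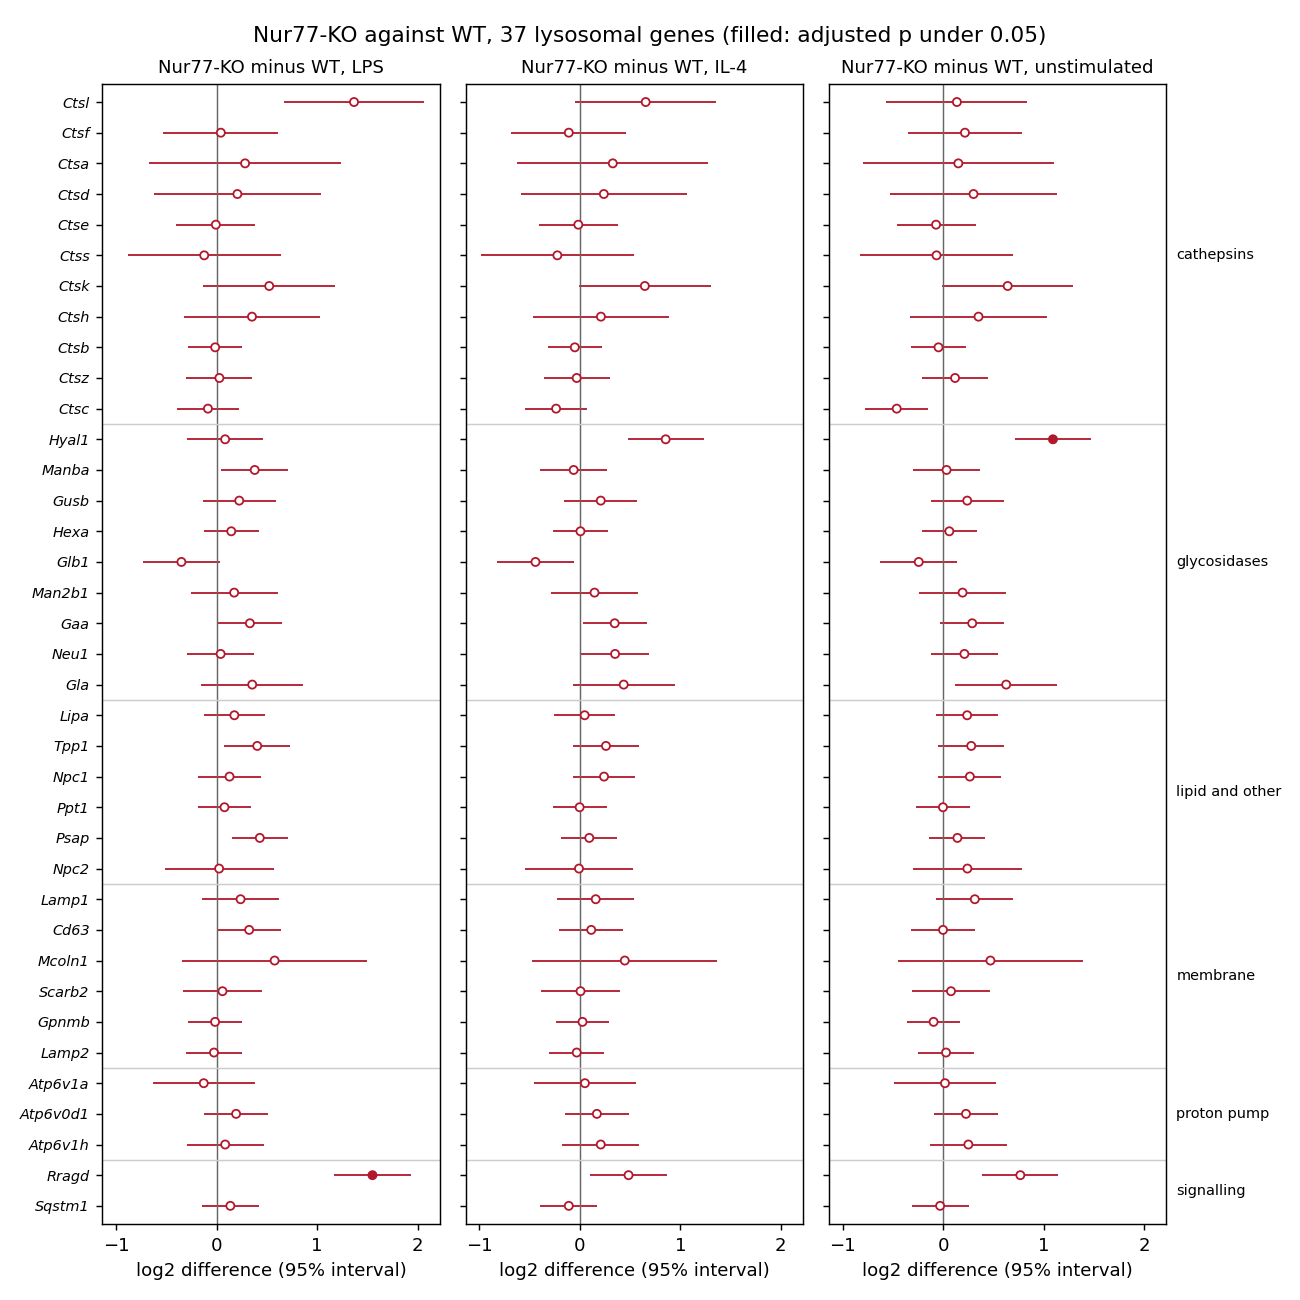
Log2 difference of Nur77-KO minus WT (horizontal axis, points with 95% intervals) with LPS, with IL-4 and without stimulation for the 37 tested genes, ordered by role; filled points have an adjusted p under 0.05. Rragd with LPS (1.55) and Hyal1 without stimulation (1.09) are filled, and most other points lie slightly right of 0.

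Marker genes of other cell types were compared between the genotypes. The summed intensity of 7 tested stromal marker genes was 3905 to 4519 in unstimulated Nur77-KO BMM and 1181 to 1329 in unstimulated WT BMM, and that of 8 tested neutrophil genes 3842 to 5276 and 839 to 1295. With LPS the stromal sums were 395 to 4566 in Nur77-KO and 410 to 2057 in WT BMM, and the neutrophil sums 5085 to 12849 and 7658 to 12123. In unstimulated WT BMM the neutrophil genes Ngp, Camp, Mpo and Lcn2 and the stromal gene Pdgfrb were not detected on any array. None of these markers was called by adjusted p between genotypes. By the second rule Col1a1 was 6.07-fold higher in unstimulated Nur77-KO BMM (limma, unadjusted p = 0.00906), while Dcn and Sparc did not pass it. The paper, from these same arrays, lists Col1a1, S100a9 and Ltf among the genes most raised in Nur77-KO BMM. The part of these cells, and of sex, in the differences of the lysosomal genes was not tested. In such bulk cultures a change in the share of cells and a change in RNA per cell cannot be told apart.

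The response to LPS or IL-4 was not called different between the genotypes for any of the 37 genes (0.0161% and 0.00805% of all genes were called). At an unadjusted p under 0.05 it was 3 of 37 for LPS (4.52% of all genes) and 0 for IL-4 (2% of all genes). The LPS response differed by 1.23 ± 0.47 for Ctsl (adjusted p = 0.9999), 0.78 ± 0.25 for Rragd (adjusted p = 0.745) and -1.01 ± 0.25 for Hyal1 (adjusted p = 0.472), and all 3 rest on levels with LPS that were not detected in WT BMM (for Hyal1 in neither genotype). With median scaling the difference for Rragd was -0.08, so its direction depends on the scaling. Without the 4 arrays, the difference was called for Ctsl (1.77, adjusted p = 0.0106) and Rragd (1.06, adjusted p = 0.0102), the smaller fall being that of the Nur77-KO BMM, where 0.668% of all genes were called. The LPS arrays left out held the lowest Nur77-KO and the highest WT values of both genes. These 2 calls follow in part from that choice and are not independent support. The 95% intervals of these differences between responses reached from 0.38 to 1.35 on either side of the estimate, so differences of that size could not be seen.

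Several of the 37 genes differed between the 4 arrays with low Sparc and the other arrays of their groups. Ctsa read 11.76, 12.34, 11.41 and 11.81 on Nur77-KO LPS replicate 1, Nur77-KO IL-4 replicate 1, WT LPS replicate 3 and WT IL-4 replicate 1, against 10.33 to 10.83 on the other 8 stimulated arrays. Ctsh read 13.04, 13.23, 12.98 and 13.29 on the same arrays, against 11.98 to 12.69 on the other 8. Ctsk read 8.16, 8.14, 7.98 and 7.30 there, against 8.06 to 9.35 on the other 8, and Mcoln1 read 5.66, 6.70, 5.38 and 6.09, against 6.46 to 7.41. These ranges overlap, but within each of the 4 groups the array that stands apart was the lowest for both genes. On the other 14 arrays Ctsk read 8.67 to 9.50 in Nur77-KO and 8.06 to 8.80 in WT BMM, and Sparc 10.15 to 10.55 and 8.44 to 8.96. The part of the stromal cells in the Ctsk values was not tested.

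**Figure D4:**
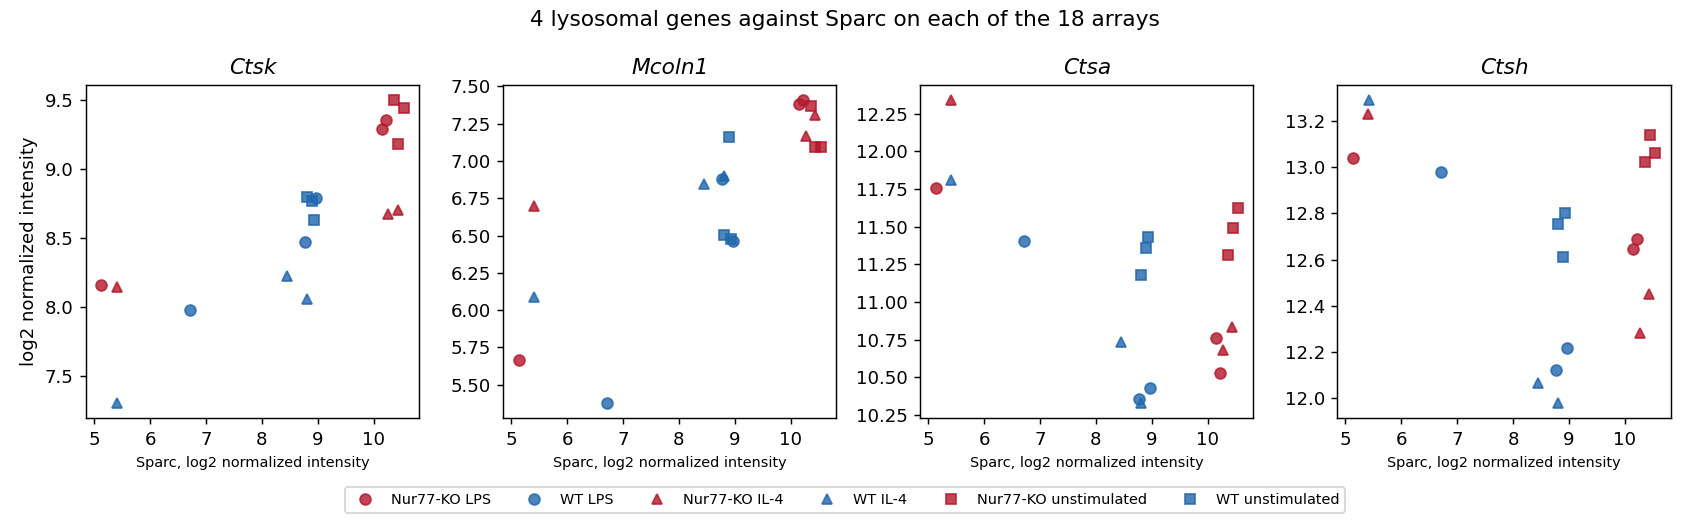
Log2 normalized intensity of Ctsk, Mcoln1, Ctsa and Ctsh (vertical axes, not starting at 0) against that of the stromal gene Sparc (horizontal axes) on each of the 18 arrays, with circles for LPS, triangles for IL-4, squares for no stimulation, red for Nur77-KO and blue for WT. The 4 arrays with Sparc at 5.13 to 6.71 have the lowest Ctsk and Mcoln1 and the highest Ctsa and Ctsh of their groups.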

How the data were processed

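RNA of 18 BMM samples (6 groups of 3 arrays on 6 slides) was hybridised to Illumina MouseWG-6 v2 arrays. Per the labels and file headers, the authors exported bead intensities with a detection p-value per probe from GenomeStudio 2011.1. The deposited log2 values were made by the authors by background correction with control probes, quantile normalization and log2 transformation in limma 3.10.2 and R 2.14.0, and the same steps run on the deposited intensities gave values within 0.173 of them. Quantile normalization gives every array the same distribution of values, so a change shared by most genes is not seen.

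Of 45281 probes, 34885 carried 1 gene symbol in the platform annotation, 18 several and 10378 none. For each gene the brightest probe detected (p under 0.05) on at least 1 array was kept, which left 12417 genes. Group means were fitted on all 18 arrays with lmFit and eBayes of limma 3.58.1 in R 4.3.3, with 12 residual degrees of freedom, and p-values were two-sided and adjusted by the Benjamini-Hochberg method over all genes of a comparison. The code was tested on simulated data. Where no array of a group detected a gene, a bound on the fold change was taken from the lowest detected level on each array. The genes and lists were chosen with earlier results of these data known. All 39 genes were described, and of each other list up to 2 called genes per comparison with the largest difference could be named. Alternatives were other background corrections, scalings, probe rules, blocks for slide and replicate number, fits on fewer groups, and leaving out arrays. The number of arrays limits the precision. Promoters came from RefSeq (GRCm38.p6). Protein sequences were not used here.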

Additional observations from a re-analysis of the deposited data

How the results depend on the processing

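None of the 89 calls of a gene in a comparison changed direction under the 32 other settings, and 28 were made under all of them. Single other probes of called genes did differ in sign. This held for Npc1 with LPS, against no stimulation and against IL-4, in both genotypes. In WT BMM it also held for Atp6v0d1 with LPS against no stimulation and for Glb1 with LPS against IL-4. Of the 37 genes, 1 differed between Nur77-KO and WT BMM without stimulation; the count was 0 with median scaling, with cyclic loess and with slide as a fixed block, 2 when only the groups compared were fitted, and 3 without the 4 arrays that stand apart. With LPS, 1 differed between the genotypes; it was 0 with median scaling, cyclic loess, only the groups compared or the fixed slide block, and 5 without the 4 arrays. With IL-4 the count was 0, and 2 without the 4 arrays. For LPS against no stimulation, the count of 23 in WT BMM was 7 with median scaling. For IL-4 against no stimulation, the count of 2 in Nur77-KO BMM was 0 with median scaling or only the groups compared, 1 with cyclic loess or the fixed slide block, and 11 without the 4 arrays. The count of 1 in WT BMM was 0 with median scaling or only the groups compared, 2 without background correction, with the mean of a gene's probes or with the fixed slide block, and 9 without the 4 arrays. For LPS against IL-4 the count of 20 in Nur77-KO BMM was 6 with median scaling and 13 with only the groups compared, and that of 23 in WT BMM was 5 with median scaling. The LPS response differed between genotypes for 0 genes, and for 2 without the 4 arrays. For most of these settings the share of all genes called is not given here. These counts alone do not show whether the 37 genes moved apart from all genes. The causes were not tested. Median scaling moved the median of all genes by 0.47 for Nur77-KO against WT without stimulation, where the median of the 37 was 0.72, and by -0.46 for LPS in Nur77-KO BMM, where it was -0.94. Of all called genes, 89.5% were then higher in unstimulated Nur77-KO BMM (61.5% with quantile normalization), 15.7% higher with LPS in Nur77-KO BMM (37.3%), and 40.2% and 70% higher with IL-4 in Nur77-KO and WT BMM (56.3% and 54.5%).

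Leaving out 1 array at a time gave 0 to 1 genes for Nur77-KO against WT without stimulation, 1 to 2 with LPS and 0 to 1 with IL-4, 17 to 20 and 19 to 23 for LPS against no stimulation in Nur77-KO and WT BMM, 1 to 2 and 0 to 3 for IL-4, and 17 to 22 and 21 to 23 for LPS against IL-4. The replicate numbers do not pair the arrays (mean correlation of deviations 0.058, from -0.318 to 0.524), although 11 of 18 arrays correlated best with an array of the same number, and with a replicate block 2 genes differed between the genotypes with LPS. Probes near background and near the top of the scale limit what can be seen of Hyal1, Rragd, Ctsl, Ctsf, Psap, Ctsb and Gpnmb.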
